A study of Homo sapiens with 16 samples.

Results

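The mRNA levels of 10 target genes of the transcription factor p53 with roles in DNA repair and metabolism were followed in SH-SY5Y cells, a human neuroblastoma cell line. The genes were XPC, DDB2, POLH, RRM2B, FDXR, SESN1, SESN2, GADD45A, ZMAT3 and TIGAR. They were chosen by name, with earlier results of these data known. All 10 were found among the 26410 genes of the deposited tables. Poly(A) RNA had been sequenced in 16 libraries from 4 single-cell clones, with 2 replicates per clone and treatment. Clones KO11 and KO28 had received a Cas9 vector with a guide against TRPM2, a calcium-permeable ion channel, and are labelled TRPM2 KO. Clones Scr13 and Scr16 had received the same kind of vector with a scrambled guide. All 4 clones had also been transfected with a donor vector that carries GFP and a puromycin marker between TRPM2 homology arms, and had been passaged under puromycin. Each clone was sequenced untreated and after 24 h of doxorubicin, a chemotherapy drug that poisons topoisomerase II and breaks DNA. The labels of the samples and the study's account of these libraries give 0.3 µM doxorubicin, while the design text of the series gives 3 µM. There were thus 4 groups of 4 libraries, called untreated Scr, untreated TRPM2 KO, doxorubicin Scr and doxorubicin TRPM2 KO. Each genotype rests on 2 clones, so a difference between the genotypes and a difference between clones cannot be told apart. The labels do not say that the replicates came from separate cultures, although the methods call them biological, and the p-values measure the spread between these libraries.

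DNA damage stabilizes p53, which then binds its response elements and switches on genes that halt the cell cycle, start apoptosis, repair DNA and change metabolism. XPC and DDB2 recognize damaged bases for nucleotide excision repair, POLH copies past damage, and RRM2B makes deoxynucleotides outside S phase. FDXR feeds electrons into mitochondrial iron-sulfur cluster and steroid synthesis, and the sestrins SESN1 and SESN2 restrain mTORC1. GADD45A binds stress kinases and cell cycle proteins, ZMAT3 is an RNA-binding protein that alters splicing, and TIGAR lowers fructose-2,6-bisphosphate.

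In GENCODE 29 on GRCh38, all 10 are protein coding. XPC lies at chr3:14145147-14178783, DDB2 at chr11:47214465-47239240 and POLH at chr6:43576150-43615660. FDXR lies at chr17:74862497-74873031, SESN1 at chr6:108986437-109094819 and SESN2 at chr1:28259527-28282491. GADD45A lies at chr1:67685061-67688338, ZMAT3 at chr3:179017223-179072279 and TIGAR at chr12:4307763-4354593. XPC, POLH, DDB2, SESN1 and TIGAR overlap other genes on the opposite strand. The library kit kept the strand, but whether the counting used it is not given in the sources used here, so reads of overlapping genes could be split wrongly. LSM3, a neighbour of XPC, had log2 fold changes with doxorubicin of -0.47 in Scr and -0.39 in TRPM2 KO, and GTPBP2, a neighbour of POLH, of 0.23 and 0.19. The other overlapping genes were not examined, and the part of overlapping reads in the values of the 10 genes was not tested.

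Promoter sequences were taken from RefSeq on GRCh38.p14, as windows of 300 bases that reach from 250 bases before a transcript start to 50 bases after it. Of the 10 genes, 8 had at least 1 window, all but RRM2B and GADD45A, and there were 13 windows in all. They were searched for the 10-base p53 half-site consensus, which reads the same on both strands, so that 1 search covers both. A half-site occurred in 3 of the 13 windows and in 6.63% of all 35116 windows of the same length. A pair of half-sites separated by at most 1 base is a strict form of the site that p53 binds as a tetramer. It occurred in 1 of the 13 windows and in 0.0199% of all windows, which are 7 windows. Wider gaps and mismatches were not searched. These 3 stretches are shown because they hold the matches. Half-sites are in capitals, and each stretch is 30 bases long, written 5′ to 3′ on the strand of its gene:
DDB2, chr11:47214974-47215003 (+): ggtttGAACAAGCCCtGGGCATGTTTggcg
FDXR, chr17:74872986-74873015 (-): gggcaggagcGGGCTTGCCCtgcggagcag
SESN1, chr6:109009018-109009047 (-): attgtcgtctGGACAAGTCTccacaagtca
The DDB2 stretch holds the pair, which begins 6 bases from a transcript start, with the first base of the transcript counted as 1. The FDXR match begins 11 bases before a transcript start and the SESN1 match 49 bases before one. In GENCODE 29 the DDB2 and FDXR stretches overlap an annotated exon and UTR of their gene, and the SESN1 stretch lies within the gene outside its exons. A match in letters is not a measured binding site, and the windows without one say nothing about sites elsewhere, such as in introns.

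Levels are given as normalized CPM, read counts brought by the authors to a common library total after scaling for composition. Libraries held between 10481177 and 25086085 reads on genes, and the shallowest was doxorubicin Scr16 replicate 1. A single gene was compared on log2(normalized CPM + 1) with limma, and it was called when its p-value, adjusted over all genes tested with the Benjamini-Hochberg method, was below 0.05. Log2 fold changes are on that scale, which understates the change of low genes, and are followed by their standard error. All 10 genes passed the filter on low values in each comparison, with between 99 reads (TIGAR) and 6594 reads (ZMAT3) per library. In bulk RNA, fewer cells that express a gene and less RNA per cell cannot be told apart.

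TRPM2, the targeted gene, was read at more than the control level in the untreated libraries labelled TRPM2 KO. Untreated, its normalized CPM were 1.93 and 2.23 in KO11, 1.41 and 2.19 in KO28, 0.118 and 0.115 in Scr13, and 0 in both Scr16 libraries. After doxorubicin they were 1.22 and 1.83 in KO11, 1.37 and 0.658 in KO28, 0.0594 and 0.0631 in Scr13, and 1.33 and 0.39 in Scr16. In these libraries 3 reads, taken as the detection floor for counting error alone, were worth 0.118 to 0.285 normalized CPM. The untreated groups did not overlap, in the direction opposite to a loss of transcript. Untreated, TRPM2 passed the filter on low values only through the TRPM2 KO libraries, and the Scr libraries were at or below the floor. The limma result there (log2 fold change 1.47 ± 0.269, adjusted p = 0.00154) is therefore not read as a test. The doxorubicin groups overlapped and TRPM2 was not called between them (0.69 ± 0.333, limma adjusted p = 0.249). The methods place the deletion at the start of the coding sequence with a frameshift behind it, so reads on the rest of the gene would not check it. The values are per gene and do not give where the reads lie, and TRPM2-AS overlaps TRPM2 on the opposite strand. "TRPM2 KO" therefore stands below for the label of a library.

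The first question was how doxorubicin changed these genes in each genotype. All 10 rose in Scr and all 10 rose in TRPM2 KO. Of all 15325 genes tested, 11.5% were called in Scr and 16.7% in TRPM2 KO, and 6.53% and 9.62% of all genes tested were called higher with doxorubicin. The fold changes of the 10 genes lay between 1.39 and 3.19 in Scr and between 1.74 and 3.85 in TRPM2 KO. Their median log2 fold change was 1.28 in Scr and 1.48 in TRPM2 KO, against -0.01 and 0.02 over all genes tested. For each of the 10 genes in each genotype, the lowest library after doxorubicin lay above the highest untreated one, which held for 8.45% of all genes in Scr and 10.7% in TRPM2 KO.

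**Figure D1:**
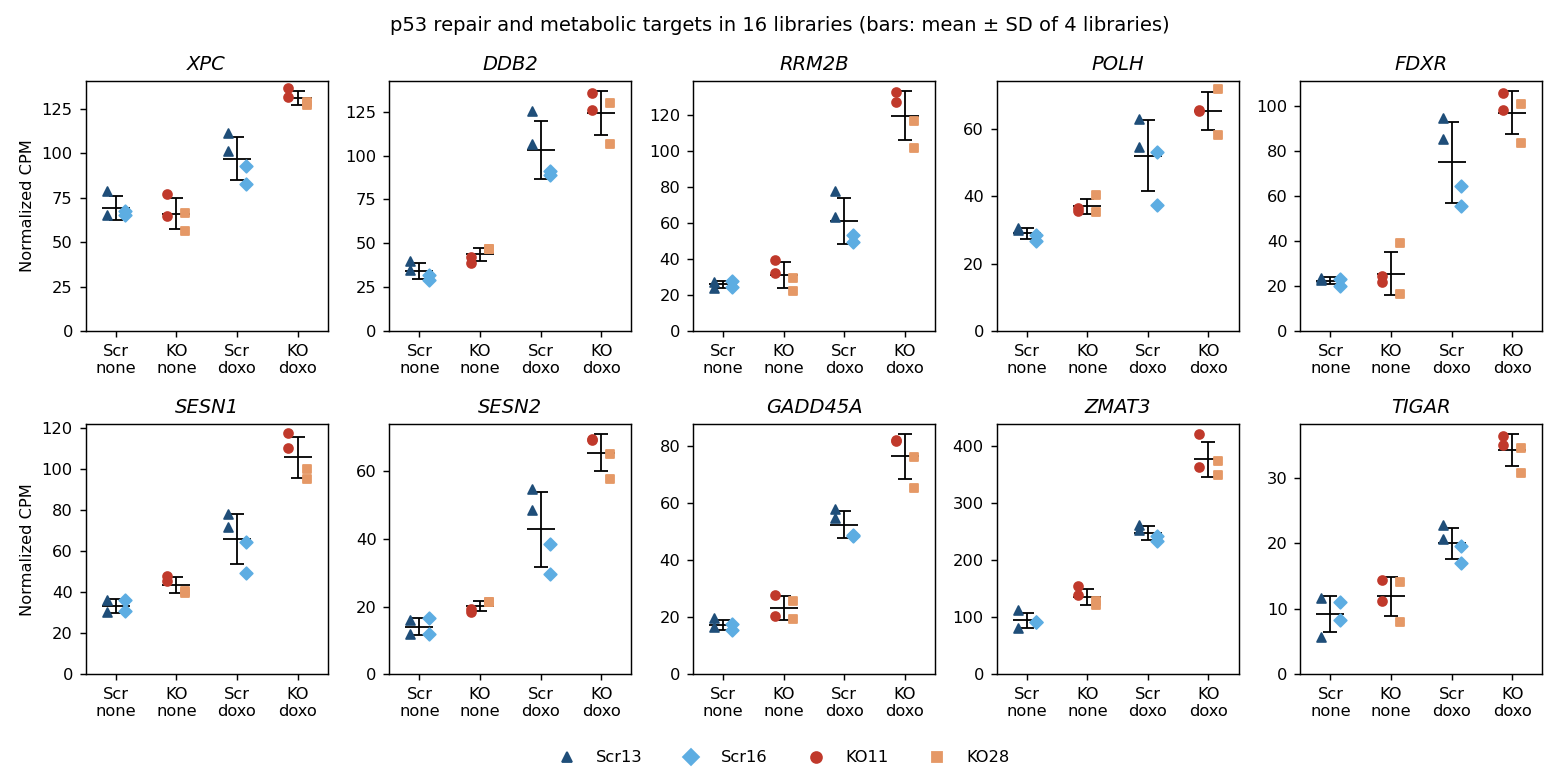
Normalized CPM of each of the 10 genes in all 16 libraries, with points for libraries marked by clone and bars for the group means. In every panel the doxorubicin libraries of a genotype lie above its untreated ones, and ZMAT3 reaches the highest values, up to 422 normalized CPM.

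XPC binds distorted DNA and opens global nucleotide excision repair, and it showed the smallest rise of the 10 in Scr. In Scr it stood at 78.9 and 65.1 normalized CPM in untreated Scr13 and 65.4 and 67.4 in untreated Scr16, and at 101 and 111 in Scr13 and 82.7 and 92.7 in Scr16 after doxorubicin. In TRPM2 KO it stood at 77.0 and 64.6 in untreated KO11 and 56.5 and 66.2 in untreated KO28, and at 136 and 132 in KO11 and 127 and 129 in KO28 after doxorubicin. The untreated libraries of both genotypes overlapped, whereas after doxorubicin each TRPM2 KO library lay above each Scr library. The log2 fold change with doxorubicin was 0.48 ± 0.0948 in Scr (limma adjusted p = 9.0e-04) and 0.98 ± 0.0948 in TRPM2 KO (adjusted p = 6.2e-09).

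DDB2 forms with DDB1 the damage sensor that recruits XPC to ultraviolet lesions, and it rose in both genotypes. Untreated, its normalized CPM were 35.1 and 40.01 in Scr13, 29.1 and 32.3 in Scr16, 38.8 and 42.5 in KO11, and 46.7 and 47.0 in KO28. After doxorubicin they were 125 and 107 in Scr13, 91.3 and 89.1 in Scr16, 136 and 126 in KO11, and 129.6 and 107 in KO28. The Scr16 libraries were the lowest in both treatments, and the Scr13 and TRPM2 KO libraries overlapped after doxorubicin. Doxorubicin raised DDB2 by 1.56 ± 0.109 on the log2 scale in Scr (limma adjusted p = 1.4e-11) and by 1.49 ± 0.109 in TRPM2 KO (adjusted p = 2.5e-11), and the 95% interval of the difference of these rises ran from -0.39 to 0.24.

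Of 22 other genes of nucleotide excision repair, 0 were called higher and 3 lower by limma in Scr, namely ERCC8, RPA3 and RPA1, and 0 were called higher and 2 lower in TRPM2 KO, namely RPA2 and RPA1. At an unadjusted p below 0.05, 1 was higher in Scr and 0 in TRPM2 KO, and edgeR and DESeq2 likewise called 0 higher. ERCC8, which serves repair of transcribed genes, had a log2 fold change of -0.57 ± 0.177 in Scr (limma adjusted p = 0.0337). The RPA genes encode the single-strand binding complex, and RPA1 had log2 fold changes of -0.28 ± 0.0773 in Scr and -0.23 ± 0.0773 in TRPM2 KO. The median of the list was -0.10 in Scr and -0.07 in TRPM2 KO. DDB1, the partner of DDB2, stood at 449 ± 12.4 normalized CPM in untreated Scr and 429.6 ± 17.0 in doxorubicin Scr (SD, n = 4), and RAD23B, the partner of XPC, at 275 ± 7.61 and 250.1 ± 10.5.

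POLH encodes DNA polymerase eta, which copies past lesions that stop other polymerases. Its normalized CPM ranged from 26.9 to 30.6 in untreated Scr and from 37.5 to 63.0 in doxorubicin Scr, and from 35.5 to 40.5 and from 58.4 to 72.0 in TRPM2 KO. It was the gene with the smallest rise of the 10 in TRPM2 KO, and its log2 fold change with doxorubicin was 0.80 ± 0.117 in both genotypes. Among 13 other genes of translesion synthesis, REV3L, the catalytic subunit of polymerase zeta, was called higher in Scr (0.38 ± 0.0964, limma adjusted p = 0.00808) and in TRPM2 KO (0.66 ± 0.0964, adjusted p = 1.0e-05). RAD18, a ubiquitin ligase that acts on PCNA, was called lower in both, and POLD1, a replicative polymerase, lower in TRPM2 KO. The Y-family polymerases POLI and POLK were not called, with log2 fold changes of -0.01 in Scr and 0.06 in TRPM2 KO for POLI and of 0.03 and 0.01 for POLK.

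RRM2B encodes the p53-inducible small subunit of ribonucleotide reductase, and it differed most between the genotypes after doxorubicin. Untreated, its normalized CPM were 27.2 and 24.1 in Scr13, 28.05 and 24.7 in Scr16, 39.7 and 32.5 in KO11, and 29.5 and 22.3 in KO28. After doxorubicin they were 78.0 and 63.5 in Scr13, 53.4 and 49.4 in Scr16, 133 and 127 in KO11, and 117 and 102 in KO28. The untreated groups overlapped, with KO11 high and KO28 level with Scr, and after doxorubicin the lowest TRPM2 KO library lay well above the highest Scr library. Its rise was 1.18 ± 0.136 on the log2 scale in Scr (limma adjusted p = 3.2e-07) and 1.94 ± 0.136 in TRPM2 KO (adjusted p = 1.3e-11).

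In a list of 9 other genes of ribonucleotide reductase and deoxynucleotide supply, 4 fell. RRM2, DUT, TK1 and RRM1 were called lower with doxorubicin in Scr, the same 4 were called lower in TRPM2 KO, and 0 were called higher in either by limma, edgeR or DESeq2, or at an unadjusted p below 0.05. Of the 9 log2 fold changes, 1 was above 0 in Scr and 3 in TRPM2 KO. RRM2, the small subunit of the S-phase enzyme, fell from 285 ± 16.9 to 186 ± 32.5 normalized CPM in Scr and from 273 ± 23.2 to 204 ± 10.2 in TRPM2 KO (SD, n = 4). RRM1, the large subunit shared with RRM2B, had log2 fold changes of -0.26 ± 0.0810 in Scr and -0.36 ± 0.0810 in TRPM2 KO. Per kilobase of exon, RRM2B rose from 4.69 to 11.01 normalized CPM in Scr and from 5.59 to 21.6 in TRPM2 KO.

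FDXR, ferredoxin reductase of the mitochondrial matrix, had the largest log2 fold change of the 10 genes in both genotypes, over all libraries. Untreated, its normalized CPM were 22.8 and 23.5 in Scr13, 20.1 and 23.2 in Scr16, 24.5 and 21.99 in KO11, and 16.7 and 39.4 in KO28. After doxorubicin they were 85.5 and 94.6 in Scr13, 55.8 and 64.5 in Scr16, 106 and 98.2 in KO11, and 83.7 and 101 in KO28. The untreated KO28 replicates were the farthest apart, and after doxorubicin only Scr16 stood below the other clones. In Scr it was not the largest without clone Scr13 (1.43, against 1.53 for DDB2). In TRPM2 KO it did not differ from RRM2B beyond their standard errors. The order turned with a pseudocount of 4 (1.82 for FDXR and 1.84 for RRM2B), with edgeR or DESeq2, and without clone KO11 (1.80 and 2.04). It also turned without untreated KO28 replicate 1, where FDXR fell to 1.77, while RRM2B was at least 1.79 whichever library was left out. Doxorubicin raised FDXR by 1.67 ± 0.166 on the log2 scale in Scr (limma adjusted p = 2.0e-08) and by 1.94 ± 0.166 in TRPM2 KO (adjusted p = 6.4e-10). Of 10 other genes of ferredoxins and iron-sulfur cluster assembly that were tested, ISCU, the assembly scaffold, was called higher in Scr (0.44 ± 0.102) and in TRPM2 KO (0.78 ± 0.102), and the remaining 9 were not called in either. FDX1, a ferredoxin that FDXR reduces, was low, at 7.71 ± 0.753 normalized CPM in untreated Scr and 8.81 ± 1.90 in doxorubicin Scr (SD, n = 4).

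The sestrins bind the GATOR2 complex and so link stress and amino acid supply to mTORC1. SESN1 stood at 36.2 and 30.3 normalized CPM in untreated Scr13, 30.9 and 36.4 in Scr16, 45.4 and 48.0 in KO11, and 39.6 and 40.8 in KO28. After doxorubicin SESN1 stood at 71.7 and 78.3 in Scr13, 49.6 and 64.7 in Scr16, 110.2 and 118 in KO11, and 95.4 and 99.9 in KO28. In both treatments each TRPM2 KO library lay above each Scr library. SESN2 behaved alike, with normalized CPM of 16.1 and 11.98 in untreated Scr13, 11.8 and 16.5 in Scr16, 19.4 and 18.3 in KO11, and 21.3 and 21.4 in KO28. After doxorubicin SESN2 stood at 54.8 and 48.4 in Scr13, 29.8 and 38.4 in Scr16, 69.6 and 69.2 in KO11, and 57.8 and 65.0 in KO28. Again the genotypes did not overlap in either treatment, and Scr16 was the lowest clone after doxorubicin. The log2 fold change with doxorubicin was 0.95 ± 0.113 in Scr and 1.26 ± 0.113 in TRPM2 KO for SESN1, and 1.52 ± 0.147 and 1.65 ± 0.147 for SESN2, with limma adjusted p-values of at most 6.0e-07.

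SESN3, the remaining family member, which is known mainly as a FOXO target, was not called, with log2 fold changes of 0.28 ± 0.116 in Scr and 0.26 ± 0.116 in TRPM2 KO. Of 15 genes of sestrins, GATOR and AMPK besides the 2 members, SEH1L of GATOR2 was called lower in Scr and 0 higher, with 3 higher at an unadjusted p below 0.05. In TRPM2 KO 3 were called higher, the AMPK beta subunits PRKAB1 and PRKAB2 and WDR59 of GATOR2, and 2 lower, SEH1L and SEC13.

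GADD45A ranged from 15.4 to 19.7 normalized CPM in untreated Scr, from 48.2 to 57.9 in doxorubicin Scr, from 19.3 to 27.9 in untreated TRPM2 KO and from 65.3 to 81.9 in doxorubicin TRPM2 KO. Its log2 fold change with doxorubicin was 1.55 ± 0.120 in Scr (limma adjusted p = 1.4e-10) and 1.68 ± 0.120 in TRPM2 KO (adjusted p = 1.8e-11). Its relatives GADD45B and GADD45G were near the floor, with group means of at most 0.63 and 0.817 normalized CPM. Of the 4 genes tested among GADD45 relatives and stress kinase partners, MAP3K4, a kinase that GADD45 proteins bind, was called lower in TRPM2 KO (-0.33 ± 0.104, limma adjusted p = 0.0281), and 0 were called in Scr by limma, edgeR or DESeq2, with 2 lower at an unadjusted p below 0.05 in limma.

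ZMAT3 was the most abundant of the 10 genes in normalized CPM. It stood at 114 and 81.8 in untreated Scr13, 92.8 and 92.1 in Scr16, 155 and 139 in KO11, and 123 and 129 in KO28, so that the untreated genotypes did not overlap. After doxorubicin it stood at 262.6 and 253 in Scr13, 233 and 242 in Scr16, 422 and 363 in KO11, and 374 and 351 in KO28, again without overlap. The 4 doxorubicin Scr libraries were close together (248 ± 12.7, SD). The log2 fold change with doxorubicin was 1.38 ± 0.0873 in Scr (limma adjusted p = 2.1e-12) and 1.46 ± 0.0873 in TRPM2 KO (adjusted p = 4.4e-13). The 4 other ZMAT genes were not called with doxorubicin in either genotype by limma, edgeR or DESeq2, and 0 had an unadjusted p below 0.05.

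TIGAR was the least abundant of the 10 genes per kilobase of exon, with group means between 2.28 and 8.51 normalized CPM, where ZMAT3 ranged from 9.86 to 39.1 and GADD45A from 8.36 to 36.9. TIGAR ranged from 5.7 to 11.7 normalized CPM in untreated Scr, from 16.9 to 22.7 in doxorubicin Scr, from 7.95 to 14.3 in untreated TRPM2 KO and from 30.7 to 36.4 in doxorubicin TRPM2 KO. Its log2 fold change with doxorubicin was 1.08 ± 0.185 in Scr (limma adjusted p = 1.4e-04) and 1.48 ± 0.185 in TRPM2 KO (adjusted p = 8.6e-07). Of 9 related genes tested, PFKP, PFKFB3 and PFKL were called higher in Scr, and PFKL, PFKFB4 and PFKP were called higher in TRPM2 KO. PFKP and PFKL are phosphofructokinase isoforms, and the PFKFB enzymes make the metabolite that TIGAR removes.

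**Figure D2:**
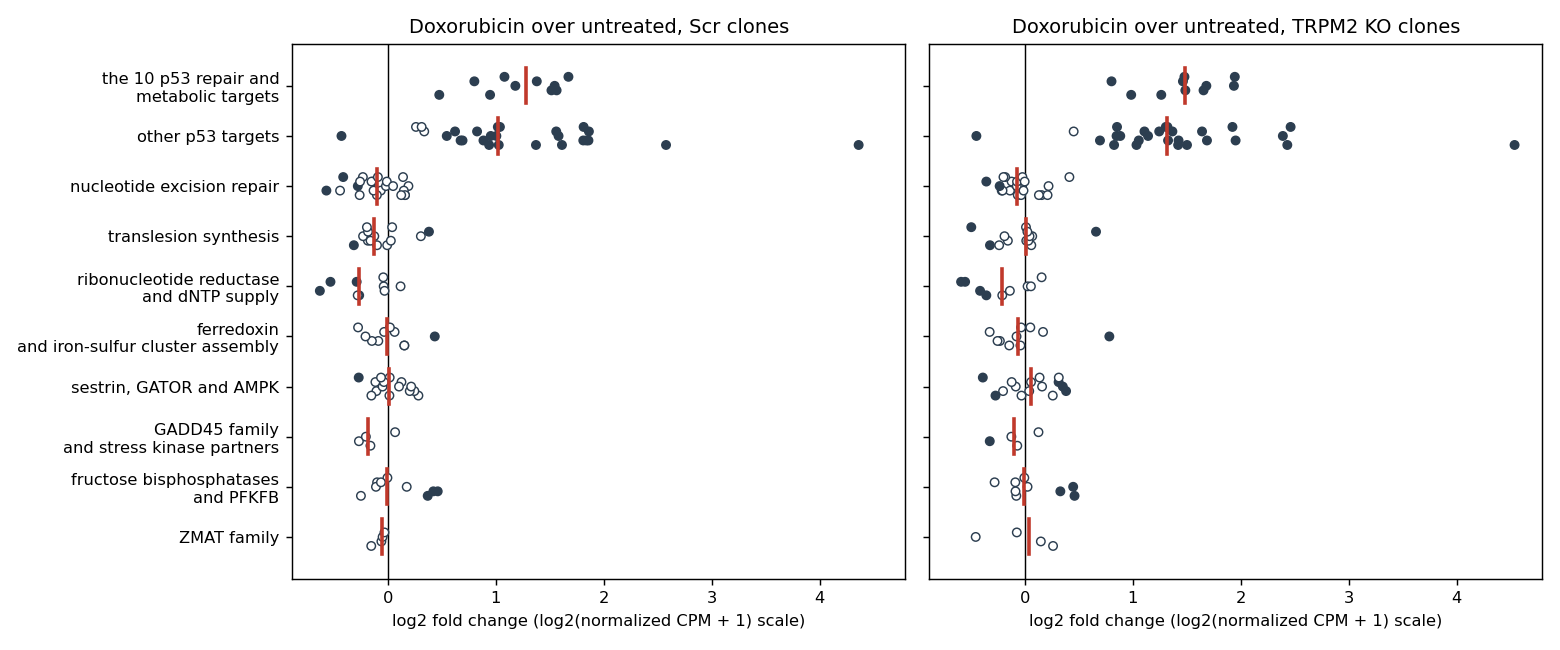
Log2 fold change with doxorubicin on the log2(normalized CPM + 1) scale, for Scr on the left and TRPM2 KO on the right, with a row for each gene list, a point for each gene, filled where called, and a red bar at the list median. The 10 genes and the other p53 targets lie mostly right of 0, and the repair and metabolic partner lists have medians between -0.26 and 0.06.

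Other known p53 targets rose too. Of 27 tested, 23 were called higher and 1 lower with doxorubicin in Scr, and 25 higher and 1 lower in TRPM2 KO, with median log2 fold changes of 1.02 and 1.32. The gene that fell in both was ABCA12, a lipid transporter, with log2 fold changes of -0.43 ± 0.0936 in Scr and -0.45 ± 0.0936 in TRPM2 KO. CDKN1A, which encodes the cell cycle inhibitor p21, rose by 2.58 ± 0.115 in Scr and 2.43 ± 0.115 in TRPM2 KO, and MDM2, the ubiquitin ligase for p53, by 0.89 ± 0.0817 and 1.33 ± 0.0817.

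The second question was whether the genotypes differed within a treatment. After doxorubicin, 7 of the 10 genes were called higher in TRPM2 KO than in Scr and 0 lower. Of all 14572 genes tested, 8.69% were called and 4.52% were called higher in TRPM2 KO. The same 7 did not overlap between the genotypes, which held in this direction for 6.76% of all genes. All 10 log2 fold changes were above 0, with a median of 0.57 against 0.01 over all genes tested. Untreated, limma and edgeR called 1 of the 10 genes higher and 0 lower, while DESeq2 on recovered reads called 5 higher, with 862 genes called over all against 695 by limma. Of all 14364 genes tested without treatment, 4.84% were called and 2.3% were called higher in TRPM2 KO. Here 4 of the 10 genes did not overlap, each higher in TRPM2 KO, against 4.29% of all genes, and 9 of the 10 differences were above 0, with a median of 0.35 against -0.01.

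RRM2B had the largest difference after doxorubicin, 0.97 ± 0.117 on the log2 scale (95% interval 0.73 to 1.22, limma adjusted p = 6.2e-06), or 1.96-fold. Untreated, the difference was 0.22 ± 0.144 (adjusted p = 0.556), and it was 0.095 without KO11 replicate 1 and 0.36 without KO28 replicate 2. ZMAT3 was the gene that limma called in both treatments, with 0.60 ± 0.0743 after doxorubicin (limma adjusted p = 8.5e-06) and 0.52 ± 0.0959 untreated (adjusted p = 0.00159). TIGAR differed by 0.75 ± 0.128 after doxorubicin (adjusted p = 3.9e-04), SESN1 by 0.69 ± 0.113 (adjusted p = 2.7e-04) and SESN2 by 0.63 ± 0.138 (adjusted p = 0.00403). GADD45A differed by 0.53 ± 0.0980 (limma adjusted p = 8.9e-04) and XPC by 0.44 ± 0.0871 (adjusted p = 0.00180). Since none of these 7 overlapped, the two-sided exact permutation test of 4 against 4 libraries gave for each the smallest p it can give, 0.0286, which restates the lack of overlap and takes both replicates of a clone as independent. FDXR (0.39 ± 0.126, limma adjusted p = 0.0565), POLH (0.34 ± 0.123, adjusted p = 0.0978) and DDB2 (0.28 ± 0.102, adjusted p = 0.105) were not called. With the clone as a random block in limma, 8 of the 10 genes were called after doxorubicin, with FDXR added (adjusted p = 0.0446), and 1510 genes over all against 1266. Genotype is constant within a clone, and the block took the same correlation within clones for all genes. The rise in calls is therefore not read as support for a difference across clones. The difference of POLH was 0.19 without Scr16 replicate 1, and it was 0.44 and called without Scr13 replicate 1 (limma adjusted p = 0.0290).

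Without treatment SESN1 (0.37 ± 0.108, limma adjusted p = 0.0534), SESN2 (0.49 ± 0.150, adjusted p = 0.0682) and POLH (0.34 ± 0.105, adjusted p = 0.0741) did not overlap between the genotypes but missed the threshold in limma. DESeq2 called these 3 (adjusted p = 0.0171, 0.0297 and 0.0236) and DDB2 (0.0457) besides ZMAT3. XPC was the gene of the 10 with a difference below 0 in untreated cells (-0.07 ± 0.0989, 95% interval -0.28 to 0.14).

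**Figure D3:**
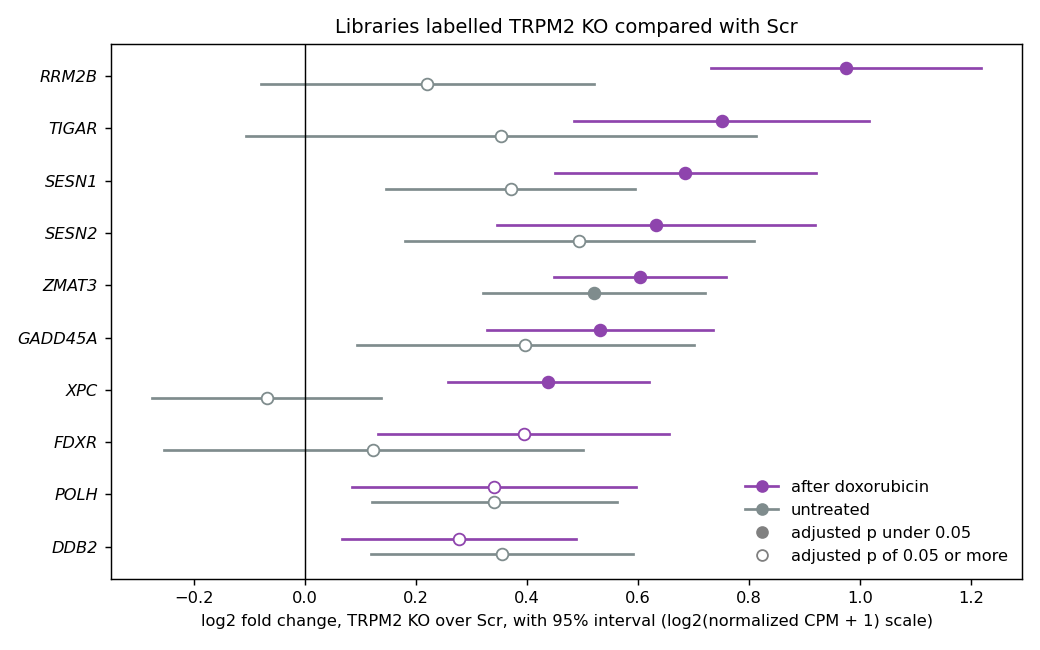
Log2 fold change of TRPM2 KO over Scr for the 10 genes, untreated and after doxorubicin, on the log2(normalized CPM + 1) scale, with 95% intervals and filled points where called. After doxorubicin RRM2B lies farthest from 0, at 0.97, and ZMAT3 alone is called by limma in both treatments.

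The number of calls and the size of some differences changed when a clone was left out. After doxorubicin Scr16 had the lowest clone mean and KO11 the highest for all 10 genes. Scr13 lay above Scr16 by a median of 1.29-fold, and KO11 above KO28 by a median of 1.11-fold. Without clone KO11, 4 of the 10 genes were called after doxorubicin in place of 7, and calls over all genes went from 1266 to 510. The 3 genes no longer called kept differences of 0.40 (XPC, adjusted p = 0.0642), 0.54 (SESN2, 0.125) and 0.43 (GADD45A, 0.0829), and the median of the 10 was 0.49. Without clone Scr16 the differences were smaller, with a median of 0.38 in place of 0.57. Of the 10 genes 6 were then called, with 1070 genes called over all. SESN2 stood at 0.34 (adjusted p = 0.0672), FDXR at 0.11, POLH at 0.15 and DDB2 at 0.10. Without clone Scr13 the median was 0.67 and all 10 were called, with 1202 genes called over all. The untreated difference of ZMAT3 was 0.49 without clone Scr16 and was not called (adjusted p = 0.0561), with 327 genes called over all in place of 695. All of these used limma with 2 libraries in 1 group and 4 in the other.

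Markers of cell state also differed between the genotypes. Neuroblastoma lines can hold adrenergic and mesenchymal cells, and the 13 adrenergic markers summed to between 8211 and 9682 normalized CPM per library, with STMN2, DBH, HAND2 and GATA2 among the highest, while TH was near 0 in all groups. The mesenchymal markers, of which 11 of 12 were used here, summed to 705 ± 160.3 normalized CPM in untreated Scr, 976 ± 95.6 in untreated TRPM2 KO, 718 ± 117 in doxorubicin Scr and 1045 ± 137 in doxorubicin TRPM2 KO (SD, n = 4). The untreated sums overlapped, with 921 and 542 in the Scr13 replicates and 872 in KO11 replicate 2. After doxorubicin the highest Scr sum was 857 and the lowest TRPM2 KO sum 879. Of 10 mesenchymal markers tested untreated, YAP1, FN1, COL1A1, VIM and FOSL2 were called higher in TRPM2 KO and TWIST1 lower, and of 9 tested after doxorubicin the same 6 and CD44, which was higher. These are calls by limma, and edgeR made the same ones, while DESeq2 did not call FN1 and VIM in untreated cells. VIM, the most abundant by group mean in TRPM2 KO, stood at 188 normalized CPM in untreated Scr and 369 in untreated TRPM2 KO, while COL1A2 and WWTR1 were low in all groups (at most 2.22 and 1.28). Of 12 adrenergic markers tested, limma called 2 higher in TRPM2 KO and 1 lower in either treatment. The part of these markers in the differences of the 10 genes was not tested.

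Genotype differences in the partner lists were also counted, where limma called 4.84% of all genes untreated and 8.69% after doxorubicin. Counts as small as those of the repair and metabolic lists cannot be set against these shares. Of the 22 nucleotide excision repair genes limma called 0 in either treatment, with 3 lower untreated and 2 lower after doxorubicin at an unadjusted p below 0.05, where edgeR called 0 and DESeq2 1 lower untreated. Limma and edgeR also called 0 of the sestrin, GATOR and AMPK list and 0 of the ferredoxin list, with at most 2 genes of a list at an unadjusted p below 0.05, and DESeq2 called 1 ferredoxin gene higher after doxorubicin. TK1, thymidine kinase of S phase, was called lower in TRPM2 KO after doxorubicin (-0.36 ± 0.0913, limma adjusted p = 0.0134), as was POLD1 (-0.47 ± 0.0852, adjusted p = 8.1e-04). DESeq2 also called REV3L higher and DUT lower in TRPM2 KO after doxorubicin. PFKFB3, a kinase that raises fructose-2,6-bisphosphate, was higher in TRPM2 KO both untreated (0.87 ± 0.0877, adjusted p = 1.8e-06) and after doxorubicin (0.36 ± 0.0996, adjusted p = 0.0260). PFKP was lower in TRPM2 KO after doxorubicin (-0.34 ± 0.0823), and ZMAT4 was higher in untreated TRPM2 KO (1.03 ± 0.203). Of the other p53 targets, 22 of 27 were called higher and 1 lower after doxorubicin, and 12 of 26 higher and 1 lower untreated. Of all genes tested, 4.52% were called higher in TRPM2 KO after doxorubicin and 2.3% untreated. CDKN1A differed by 1.27 ± 0.135 untreated and 1.13 ± 0.0755 after doxorubicin. MDM2 differed by 0.72 ± 0.0787 after doxorubicin (adjusted p = 1.7e-06) and by 0.28 ± 0.0834 untreated, where limma (adjusted p = 0.0553) and edgeR (0.0691) did not call it and DESeq2 did (0.0204).

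The third question was whether the response to doxorubicin itself differed between the genotypes. The difference of both responses was tested as an interaction over the 16 libraries, and 0 of the 10 genes were called by limma, with 0.0196% of all 15325 genes called. The largest differences were those of RRM2B, with a difference of 0.75 ± 0.193 (95% interval 0.36 to 1.15, adjusted p = 0.207), and XPC, with 0.51 ± 0.134 (95% interval 0.23 to 0.78, adjusted p = 0.207). They were the 2 of the 10 with an unadjusted p below 0.05, which 7.49% of all genes had. The edgeR quasi-likelihood test and DESeq2 on recovered reads likewise called 0 of the 10. With the clone as a fixed term in limma, 0 of the 10 and 4 genes over all were called. RRM2B was called in 0 of 32 alternatives, although its lowest adjusted p among them came close to 0.05. The interval was widest for TIGAR, from -0.14 to 0.93, and for POLH it ran from -0.34 to 0.34. Of the other p53 targets, TP53I3, an oxidoreductase, was called (1.66 ± 0.227, limma adjusted p = 6.6e-04), with 16.6 ± 1.67 and 20.6 ± 5.18 normalized CPM in untreated and doxorubicin Scr and 16.8 ± 2.95 and 66.3 ± 9.24 in TRPM2 KO (SD, n = 4).

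Within each clone the same direction held. Both doxorubicin replicates lay above both untreated replicates for 10 of 10 genes in KO11, KO28, Scr13 and Scr16. Over all genes tested, this held for 28.9%, 25.4%, 24.2% and 22.2%. The median fold of the 10 genes, from the clone means, was 3.00 in KO11, 2.88 in KO28, 2.70 in Scr13 and 2.18 in Scr16. RRM2B rose 3.60-fold in KO11, 4.22-fold in KO28, 2.76-fold in Scr13 and 1.95-fold in Scr16, so that both TRPM2 KO clones lay above both Scr clones. XPC had the same order, with 1.89-fold in KO11, 2.08-fold in KO28, 1.48-fold in Scr13 and 1.32-fold in Scr16. For SESN2 the folds of KO11 and Scr13 were equal to 3 digits, at 3.68, while KO28 had 2.88 and Scr16 2.40. Scr16 had the lowest fold of the 4 clones for 9 of the 10 genes, and the exception was DDB2, with 2.94 in Scr16 and 2.52 in KO28. Both TRPM2 KO clones had higher folds than both Scr clones for 6 of the 10 genes and for 20.6% of all genes. For ZMAT3 the nearest clones had 2.67 and 2.63, and for GADD45A 3.15 and 3.11.

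**Figure D4:**
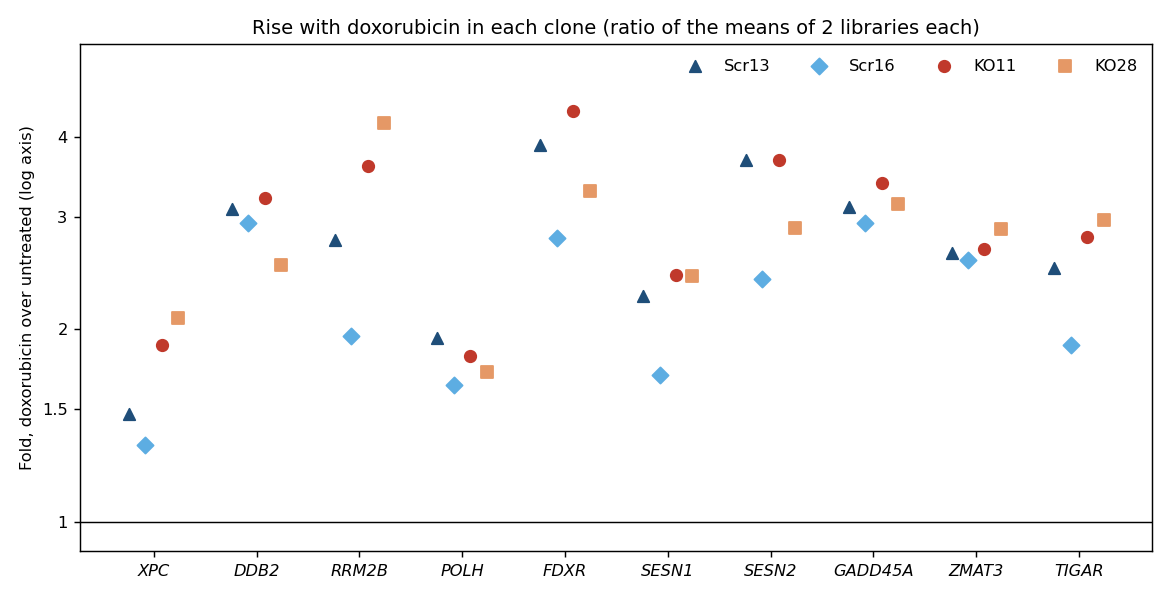
Fold of doxorubicin over untreated for the 10 genes in each clone, as the ratio of the means of 2 libraries, on a log axis. All points lie above 1, and both TRPM2 KO clones lie above both Scr clones for XPC, RRM2B, SESN1, TIGAR and, by narrow margins, GADD45A and ZMAT3.

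Across the 16 libraries the 10 genes followed one another closely. Pearson's r of log2(normalized CPM + 1) lay between 0.831 and 0.985 over the 45 pairs, with a median of 0.946. All pairs share the same libraries, which fall into an untreated and a doxorubicin cluster, so the values describe that contrast and are given without a test. Among 10052 genes with a mean of at least 10 normalized CPM, the 5 outside the 10 themselves whose pattern was most like their mean standardized profile were INKA2 (r = 0.995), KITLG (0.994), TNFRSF10B (0.990), SLC12A4 (0.984) and PLXNB2 (0.984). KITLG, the ligand of the receptor KIT, stood at 7.55 ± 1.89 normalized CPM in untreated Scr and 45.4 ± 13.4 in doxorubicin Scr, and at 11.8 ± 1.16 and 97.6 ± 12.5 in TRPM2 KO (SD, n = 4). INKA2 stood at 17.5 ± 2.39 and 48.5 ± 7.36 in Scr and at 23.3 ± 0.995 and 80.1 ± 2.54 in TRPM2 KO. TNFRSF10B encodes a death receptor for TRAIL and is itself a known p53 target.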

How the data were processed

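SH-SY5Y libraries were made with a directional poly(A) kit. The submitters' processing notes name bcl2fastq, HISAT2 2.1.0, HTSeq, edgeR and GRCh38, and the annotation release is not given in the sources used here. The deposited values per library are a signal normalized by the authors, called normalized CPM here and made from read counts and a scaled library total. Dividing by the worth of 1 read gave whole reads within 0.01 for 100% of values. Columns of the authors' own comparisons (fold changes, p-values and q-values) were not used, and 0 columns of library values were left unassigned. The scaling factors lay between 0.974 and 1.03 and within 0.965% of a TMM normalization over all 16 libraries, so both treatments were set side by side.

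Gene names were found for 95.0% of identifiers. A gene entered a test when 4 or more libraries held at least 1 normalized CPM. Testing used limma 3.58.1 in R 4.3.3 (empirical Bayes with abundance trend) on log2(normalized CPM + 1), with Benjamini-Hochberg adjustment over all genes tested. Genotypes were compared over the 8 libraries of a treatment, and doxorubicin effects and the interaction over all 16 libraries with 4 group means and no term for the clone. edgeR's quasi-likelihood test had been planned for counts, but the deposited values are not counts, so edgeR 4.0.16 and DESeq2 1.42.0 ran on recovered reads as alternatives. The scripts were tested on simulated data.

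The 10 genes, the partner lists and the markers were chosen with earlier results of these data known. Named were the 10 genes, TRPM2, MDM2, CDKN1A, the closest family partners, up to 3 called genes per list with the largest change, and the 5 genes most like the 10. LSM3, GTPBP2, ABCA12, WDR59, SEC13 and several cell state markers are not covered by that rule and were picked with their values known. Some genes that the rule would name are not reported here. Of 8 housekeeping genes, limma and edgeR called PPIA lower with doxorubicin in Scr and 0 in the other comparisons, with at most 2 at an unadjusted p below 0.05. DESeq2 also called GAPDH higher in Scr with doxorubicin and in untreated TRPM2 KO, and PPIA higher in doxorubicin TRPM2 KO than in Scr.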

Additional observations from a re-analysis of the deposited data

Results flagged for a closer look

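XPC in untreated Scr13 replicate 1, at 78.9 normalized CPM, stood apart from the other 3 untreated Scr libraries (65.1 to 67.4), with a gap to its nearest neighbour of 0.83 of the range of the group, just past Dixon's 95% critical value for 4 libraries. This was 1 of 44 groups examined, and chance gives about 5% of such groups. The library was the deepest of the 16, with 25086085 reads. Without it, the difference of XPC between the untreated genotypes was still not called.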

How the results depend on the processing

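All 10 genes kept their direction and their call with doxorubicin in both genotypes under every alternative run, except XPC in Scr, which was not called without clone Scr13 (adjusted p = 0.0918).

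Of the differences between untreated genotypes, 2 of the 10 genes were called with DESeq2 size factors, 5 with DESeq2, 2 without clone KO28, 0 without clone Scr16 (limma) and 1 to 2 when a library was left out. Over all genes, 368 were called with no filter, 458 with at least 10 normalized CPM, 330 without Scr13 and 327 without Scr16, against 695. After doxorubicin, 7 to 10 of the 10 genes were called when a library was left out, with all 10 without Scr13 replicate 1, and 4 without clone KO11. SESN2 was not called with no filter (adjusted p = 0.0667). Over all genes, 814 to 1314 were called when a library was left out, 510 without KO11 and 575 without KO28, against 1266. For doxorubicin the counts over all genes were 452 without Scr13 and 781 without Scr16 in Scr, and 856 without KO11 and 1320 without KO28 in TRPM2 KO. For the interaction they were 10 with a pseudocount of 4, 5 with no filter, 31 with DESeq2, 1 to 4 when a library was left out, 0 without KO11, 5 without Scr13, 0 without Scr16 and 1 without KO28, against 3.

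Directions turned only for differences that were not called. Untreated, XPC ranged from -0.14 to 0.0020 (without KO28 replicate 1) when a library was left out and was 0.032 without clone KO28, RRM2B was -0.015 without clone KO11, and FDXR ranged from -0.099 (without KO28 replicate 2) to 0.30 when a library was left out. The interaction of DDB2 ranged from -0.16 to 0.019 (without doxorubicin Scr13 replicate 1) when a library was left out and was 0.098 without clone KO28. That of POLH was 0.00997 with a pseudocount of 4, 0.0058 with TMM over 16 libraries (an alternative chosen after seeing the data), -0.15 to 0.097 when a library was left out, 0.13 without clone Scr13 and 0.043 without clone KO28. That of SESN2 ranged from -0.020 (without doxorubicin Scr16 replicate 1) to 0.27 when a library was left out and was -0.034 without clone KO11 and -0.16 without clone Scr16, and that of ZMAT3 ranged from -0.0058 (without untreated Scr13 replicate 1) to 0.15 when a library was left out. The causes were not tested.

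The labels do not say whether libraries of the same replicate number were handled together. Over all genes tested, the differences of replicate 1 and 2 correlated between -0.10 and 0.12 over 28 pairs of clones and treatments. Single genes could still follow the replicate number, as FN1 was higher in replicate 1 in every clone and treatment. A shared batch was not tested. With the replicate block 1, 7, 10, 10 and 0 of the 10 genes were called, as without it. These are for genotypes untreated, genotypes after doxorubicin, doxorubicin in Scr, doxorubicin in TRPM2 KO and the interaction. In the same order, 697, 1365, 1871, 2661 and 7 genes were called over all, against 695, 1266, 1764, 2564 and 3 without the block. Leaving out a clone leaves 2 libraries of that genotype, whose spread is taken as that of the others.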
